A study of Homo sapiens with 12 samples.

Results

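The transcripts that remain in NOMO-1 cells after 12 h of actinomycin D were compared between cells with ALKBH5 knocked down and control cells, over 4 of the 12 libraries of the study. NOMO-1 is an established human cell line from a monocytic acute myeloid leukaemia. The shALKBH5 group held 1 library from each of 2 hairpin lines, called line D and line E here after the letters in the deposited column names, and the shNS group held 2 libraries of cells with the non-silencing hairpin vector, replicate 1 and replicate 2. Cells of both groups carried a lentiviral hairpin, were selected with puromycin and had been in actinomycin D for 12 h, and poly(A) RNA was sequenced. The same arms sampled at 0 h and 8 h gave the other 8 libraries, which entered the estimate of the spread. Members were the 4 libraries at 12 h and all 9529 genes of the table, without the 46 ERCC spike-in transcripts. The sources used here do not say which letter belongs to which hairpin. No source describes the libraries of a group as separate cultures, and the p-values below cover the spread between libraries. In shALKBH5 that spread includes the difference between the hairpin lines, and otherwise it may be technical. It was pooled over both arms and all times, with libraries of the same line at different times treated as independent.

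ALKBH5 removes the methyl group from N6-methyladenosine (m6A), a mark that writer enzymes such as METTL3 and METTL14 place on mRNA and that reader proteins such as YTHDF2 bind. Readers differ in what they do to a marked transcript, and some speed its decay while others protect it. Actinomycin D blocks transcription, so RNA measured hours later is taken here as what is left of the pool present when the drug was added. A level at 12 h therefore holds both the level before the drug and the loss since then, and a difference at 12 h does not by itself separate them.

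By 12 h little gene signal was left, and whole-library levels overlapped between the groups. The total gene signal came to 186750 and 143765 in lines D and E, against 193639 and 167376 in the shNS replicates. The median gene stood at 3.12 and 2.81 in lines D and E, against 2.85 and 2.74 in shNS. The ERCC median was 31.4 and 30.8 in lines D and E, against 31.0 and 30.4 in shNS. It lay between 29.9 and 33.1 in all 12 libraries, so the deposited scale already held the spike-ins nearly constant. The ERCC test below is therefore a check of that scale and not a result about the cells. Exact two-sided permutation tests of total, median gene and ERCC median each gave p = 0.667, where 2 libraries against 2 cannot give a p below 0.333. Between 65.0% and 67.5% of genes had a signal under 5 in each library. Read depth is unknown, because the deposited signal is not a count. The shNS replicates were much closer to each other than the knockdown lines were, with a median absolute log2 difference of 0.307 between lines D and E and 0.0772 between the shNS replicates. Both knockdown libraries lay above both shNS libraries for 33% of genes and below both for 25%, together 58%. Of 8 markers of monocytic leukaemia cells 7 were measured, and CSF1R was not analysed here. Their levels did not move one way. SPI1, the myeloid transcription factor PU.1, had 18.7 and 18.5 in lines D and E, against 15.5 and 15.5 in shNS, and CD33, a myeloid surface receptor, had 14.2 and 9.98, against 10.9 and 10.6 in shNS. HOXA9, a leukaemia transcription factor, had 4.41 and 10.5 in lines D and E, against 10.3 and 10.7 in shNS, and its partner MEIS1 had 4.23 and 2.08, against 3.48 and 3.35 in shNS. LYZ, lysozyme, had 31.7 and 20.8 in lines D and E, against 10.7 and 12.3 in shNS. Among the 7 markers CD68 was the only one called on either scale, and it is given with ITGAM among the myeloid genes below. Among lymphoid markers, NKG7, a granule protein of killer cells, had 72.4 and 115 in lines D and E, against 181 and 150 in shNS, with lines D and E both lower (difference -0.85, limma adjusted p = 0.2). No erythroid, megakaryocyte or epithelial marker was analysed here.

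The target of the hairpins stayed low. ALKBH5 (chr17:18183078-18209954, GRCh38) had a signal of 0.636 in line D and 0.973 in line E, against 8.22 and 8.30 in the shNS replicates. Both knockdown libraries lay far below both shNS libraries, at 7.7% and 11.8% of the shNS mean. On the log2(signal + 1) scale the shALKBH5 minus shNS difference was -2.37 (SE 0.29, limma adjusted p = 0.0053). FTO, the other m6A demethylase, had 1.55 and 1.64 in lines D and E, against 1.40 and 1.26 in shNS. Its difference of 0.15 did not pass the test (limma adjusted p = 0.73). METTL3, the catalytic writer subunit, had 12.6 and 7.15 in lines D and E, against 6.72 and 5.49 in shNS, and it did not pass either (limma adjusted p = 0.24). WTAP, which holds the writer complex at its sites, had 3.74 and 2.69 in lines D and E, against 6.07 and 5.80 in shNS. Its difference was -0.73 as deposited (limma adjusted p = 0.096), and after median centring it was -0.79 and was called lower (limma adjusted p = 0.011). Of 11 writer complex genes tested, WTAP was the only one called on either scale. None of 14 reader genes was called as deposited, and 3 were called lower after centring, where 4.43% of all genes were. These were IGF2BP2, HNRNPC and RBMX. YTHDF2, the reader best known for decay of marked mRNA, had 2.63 and 2.16 in lines D and E, against 2.13 and 1.98 in shNS (limma adjusted p = 0.76). From the mRNA decay machinery 55 genes were tested. None of them was called as deposited, and 1 was called higher and 4 lower after centring. The shares over all genes after centring were 2.85% higher and 4.43% lower.

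Across all genes the knockdown and control libraries differed by a median of 0.06 on the log2 scale as deposited. As deposited, 50 genes were called higher in shALKBH5 cells, which is 0.525% of those tested, and 47 were called lower, which is 0.493% (limma, Benjamini-Hochberg adjusted p under 0.05). After each library was centred on its median gene, 272 genes were called higher, or 2.85%, and 422 were called lower, or 4.43%, together 7.28%. All 97 genes called as deposited (1.02%) were among the 694 called after centring. Every called gene on both scales had the same sign in lines D and E, and in none did the groups overlap. The calls were made on these same values, so neither trait is separate support for a called gene. The same sign in both lines was shared by 66.7% of all genes as deposited and 68.0% after centring. When libraries were rescaled to the cytoplasmic ribosomal protein genes, which put the median of all genes at 0.36, the calls were 2377 higher and 102 lower. With median-of-ratios scaling 808 genes were called higher and 776 lower. These calls rest on the spread pooled over 3 times. In a fit to the 4 libraries at 12 h alone no gene was called on either scale with limma, although 2012 genes as deposited had an unadjusted p under 0.05, against 1675 (17.6%) in the fit to 12 libraries. After centring the fit to 12 libraries had 2422 such genes (25.4%). With either shNS replicate at 12 h left out, 1 gene, DEFB1, remained called as deposited, while 7 and 8 genes remained after centring.

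**Figure D1:**
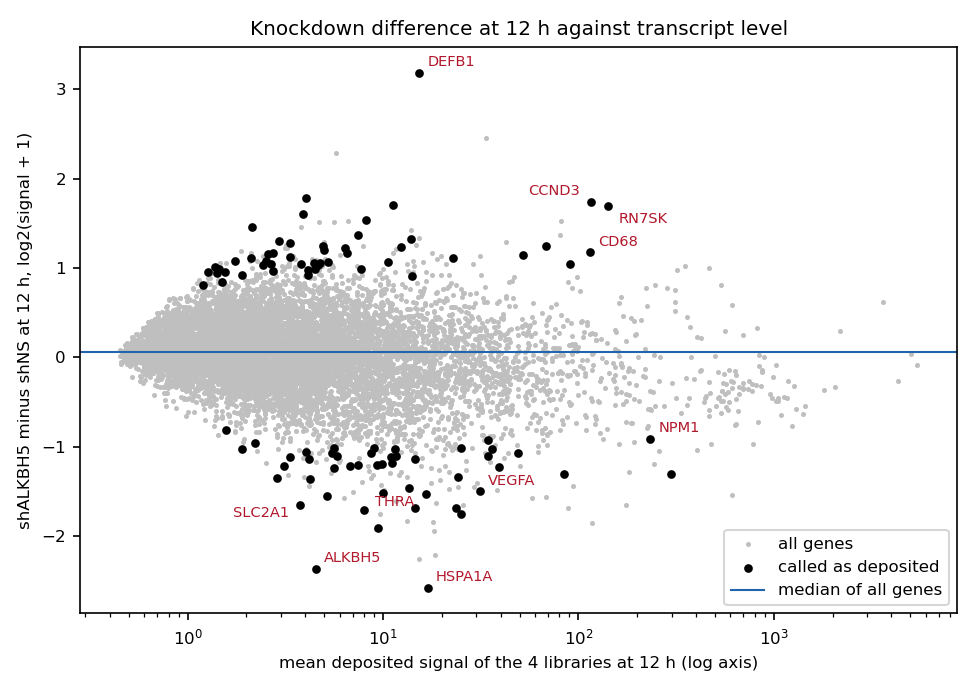
Difference between shALKBH5 and shNS at 12 h in log2(signal + 1), on the y axis, against the mean deposited signal of the 4 libraries, on a log x axis. Grey points are all 9529 genes, black points are the 97 genes called as deposited, and the blue line is the median of all genes at 0.06. Called genes lie on both sides of the line, with DEFB1 the highest at 3.19 and HSPA1A the lowest at -2.58.

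Genes of granule and antimicrobial proteins stood out on the higher side. Many proteins of this list, but not all, are made by immature myeloid cells and stored for use against microbes. Of 16 genes of this list tested, 5 were called higher and none lower as deposited, where 0.525% of all genes were called higher. In 11 both knockdown libraries were above both shNS libraries, which held for 33% of all genes. The list median was 0.96, against 0.06 over all genes. In bulk RNA, a change in the number of cells of a type and a change in RNA per cell cannot be told apart.

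DEFB1, which encodes the antimicrobial peptide beta-defensin 1, had the largest rise of all called genes. It had 22.3 and 34.8 in lines D and E, against 2.45 and 1.92 in shNS. The groups were far apart, with a fold of means of 13.1 and a log2 difference of 3.19 (SE 0.28, limma adjusted p = 0.0006). CAMP, the precursor of the cathelicidin peptide, had 6.10 and 7.51 in lines D and E, against 1.11 and 1.40 in shNS. That is a log2 difference of 1.79 (SE 0.26, limma adjusted p = 0.011). SLPI, an inhibitor of the neutrophil serine proteases, had 19.4 and 21.1 in lines D and E, against 7.78 and 7.17 in shNS. Lines D and E were close to each other here, and the difference was 1.32 (SE 0.21, limma adjusted p = 0.023).

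S100A9, a calcium-binding subunit of calprotectin, had 24.5 in line D and 11.6 in line E, against 4.13 and 4.85 in shNS. Line D was the higher, and both lines exceeded both shNS replicates (difference 1.71, SE 0.35, limma adjusted p = 0.046). RNASE2, an eosinophil granule ribonuclease, had 62.2 and 82.5 in lines D and E, against 31.9 and 31.6 in shNS (difference 1.15, limma adjusted p = 0.041). The azurophil granule proteases were uneven. ELANE, neutrophil elastase, had 411 and 534 in lines D and E, against 246 and 216 in shNS, and it was called only after centring (limma adjusted p = 0.032). PRTN3, proteinase 3, had 34.8 in line D and 130 in line E, against 46.0 and 49.0 in shNS, so its groups overlapped.

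Among 24 myeloid surface and lineage genes 3 were called higher and none lower as deposited, with a list median of 0.22. The share of all genes called higher as deposited was 0.525%. LGALS12, a galectin of myeloid and fat cells, had 7.24 and 5.46 in lines D and E, against 1.42 and 1.39 in shNS (difference 1.60, SE 0.25, limma adjusted p = 0.02). FCER1G, the signalling chain shared by several Fc receptors, had 111 and 81.3 in lines D and E, against 41.4 and 38.0 in shNS (difference 1.24, SE 0.21, limma adjusted p = 0.029). CD68, a lysosomal glycoprotein used as a monocyte and macrophage marker, had 192 and 128 in lines D and E, against 72.1 and 65.1 in shNS (difference 1.18, SE 0.22, limma adjusted p = 0.034). In all 3 genes both lines were above both shNS replicates. ITGAM, the CD11b integrin, was high in 1 line, with 13.9 in line D and 2.12 in line E, against 1.28 and 1.504 in shNS. It did not pass the test (limma adjusted p = 0.26). CD36, a scavenger receptor, had the same shape, with 39.2 in line D and 5.86 in line E, against 4.65 and 5.79 in shNS (limma adjusted p = 0.4). FCN1, a ficolin of monocytes, ran the other way and was called lower after centring, with 6.89 and 6.16 in lines D and E, against 10.2 and 9.68 in shNS.

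**Figure D2:**
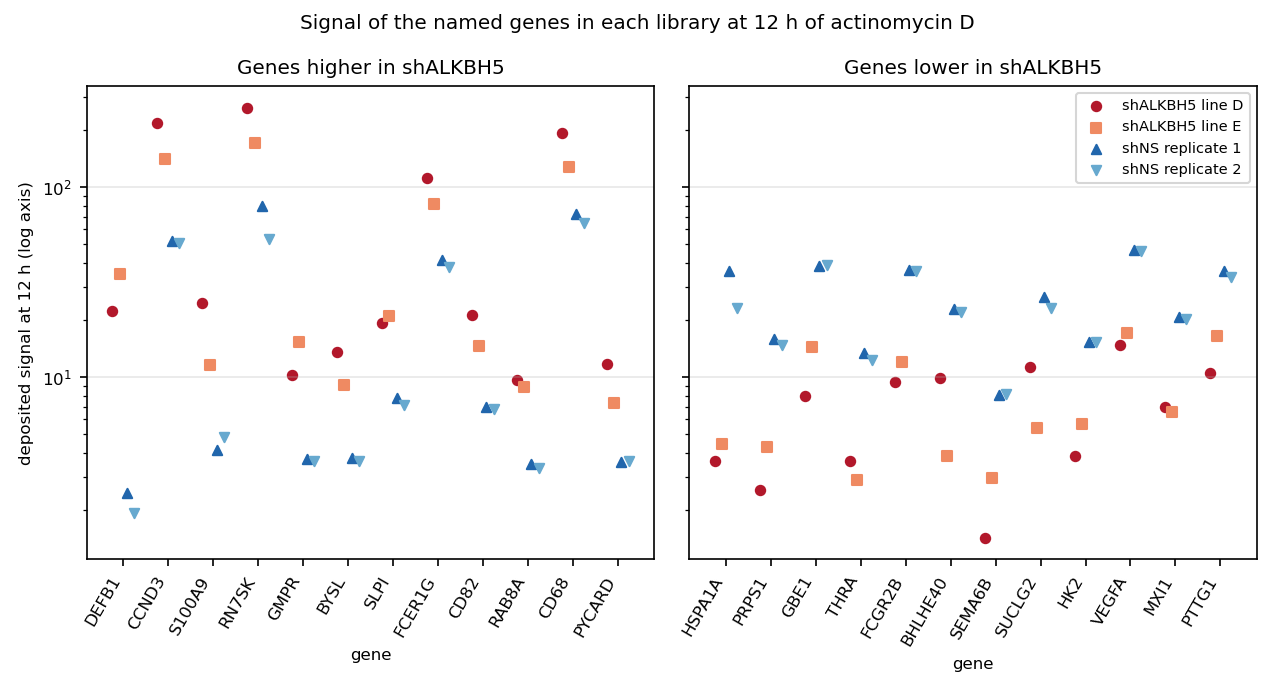
Deposited signal at 12 h in each of the 4 libraries, on a log y axis, for 12 named genes that rose most and 12 that fell most. Circles and squares are shALKBH5 lines D and E, and triangles are the shNS replicates, drawn from left to right within each gene. The genes were chosen to have no overlap between the groups, and the shNS replicates lie closer together in log2 than lines D and E in 23 of the 24.

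Other rises came from genes with no shared list. CCND3, cyclin D3, which drives entry into the cell cycle, had 218 and 141 in lines D and E, against 52.2 and 51.1 in shNS. Both lines were well above shNS, with a log2 difference of 1.74 (SE 0.23, limma adjusted p = 0.0096). BYSL, bystin, a factor in assembly of the small ribosomal subunit, had 13.5 and 9.05 in lines D and E, against 3.77 and 3.62 in shNS (difference 1.36, limma adjusted p = 0.034). BYSL (chr6:41921188-41933046, plus strand) lies next to CCND3 (chr6:41934933-42050357, minus strand) in GENCODE 29, a pairing noticed after the values were seen. GMPR, which converts GMP to IMP, had 10.2 and 15.3 in lines D and E, against 3.69 and 3.62 in shNS (difference 1.54, limma adjusted p = 0.029). CD82, a tetraspanin, rose by 1.24, RAB8A, a GTPase of vesicle transport, by 1.23, and PYCARD, the inflammasome adaptor ASC, by 1.17. Absence of overlap between the groups was a condition for naming these genes.

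RN7SK, the 7SK RNA that holds the elongation factor P-TEFb inactive, had 263 and 172 in lines D and E, against 79.5 and 53.2 in shNS. Its difference was 1.69 (SE 0.32, limma adjusted p = 0.037), whereas at 0 h it had 61.9 and 58.9 in lines D and E, against 93.2 and 72.4 in shNS. In lines D and E its signal was thus higher at 12 h than at 0 h, and it cannot be read as what was left of the 0 h pool. RN7SK has many near-identical copies in the genome and is not polyadenylated, so its level in poly(A) libraries is uncertain.

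Hypoxia response genes were lower as a group. HIF, the hypoxia-inducible factor, binds DNA at a core of ACGTG or GCGTG and switches on genes for glucose uptake, glycolysis, vessel growth and survival at low oxygen. All 14 hypoxia response genes tested, glycolysis genes apart, were lower in both knockdown libraries than in both shNS libraries, against 25% of all genes. Their log2 differences lay between -1.95 and -0.36, and the median was -1.34, against 0.06 over all genes. As deposited 4 were called lower and none higher, and after centring 9 were called lower, where 0.493% and 4.43% of all genes were.

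VEGFA, the growth factor for blood vessels, had 14.7 and 17.0 in lines D and E, against 47.0 and 46.0 in shNS. Lines D and E were close to each other and far below shNS, with a difference of -1.496 (SE 0.27, limma adjusted p = 0.034). MXI1, an antagonist of MYC, had 7.002 and 6.57 in lines D and E, against 20.7 and 20.3 in shNS (difference -1.47, SE 0.21, limma adjusted p = 0.011). BHLHE40, a transcriptional repressor, had 9.93 in line D and 3.86 in line E, against 22.8 and 22.1 in shNS. Line E was the lower, and the difference was -1.68 (SE 0.32, limma adjusted p = 0.035). KDM3A, a histone demethylase, had 3.19 and 2.73 in lines D and E, against 8.47 and 8.13 in shNS (difference -1.23, SE 0.20, limma adjusted p = 0.024). P4HA1, a collagen prolyl hydroxylase subunit, had 4.68 and 9.88 in lines D and E, against 30.0 and 28.8 in shNS. Its difference of -1.95 was the largest of the list but passed the test only after centring (limma adjusted p = 0.028), and lines D and E lay apart.

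Of 23 glycolysis genes 2 were called lower and 1 higher as deposited, where 0.493% of all genes were called lower, and 17 were lower in both knockdown libraries than in both shNS libraries, against 25% of all genes. The list median was -0.77, and after centring 6 were called lower and 1 higher, where 4.43% of all genes were called lower. SLC2A1, the glucose transporter GLUT1, had 1.32 and 1.28 in lines D and E, against 5.94 and 6.52 in shNS. Lines D and E were nearly equal, with a difference of -1.65 (SE 0.18, limma adjusted p = 0.0039). HK2, the hexokinase that HIF induces, had 3.84 and 5.65 in lines D and E, against 15.3 and 15.2 in shNS (difference -1.52, SE 0.31, limma adjusted p = 0.045). HK3, a hexokinase of myeloid cells, went the other way, with 4.12 and 2.47 in lines D and E, against 0.919 and 0.974 in shNS (difference 1.12, SE 0.19, limma adjusted p = 0.029). Further down the pathway the lines parted. ENO1, enolase 1, had 188 in line D and 485 in line E, against 914 and 846 in shNS, and TPI1, triosephosphate isomerase, had 42.4 in line D and 152 in line E, against 266 and 244 in shNS. Line D lay much further below shNS than line E in both, and neither gene passed the test (limma adjusted p = 0.086 for ENO1 and 0.15 for TPI1). PGK1, phosphoglycerate kinase, had 172 and 157 in lines D and E, against 296 and 276 in shNS, and it was called lower after centring (limma adjusted p = 0.011). Summed over the list, glycolysis genes took 1.17% of the gene signal in line D and 1.81% in line E, against 2.39% and 2.48% in shNS.

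The sequences before the start of the listed hypoxia and glycolysis genes were searched for the HIF core, whether the genes were called or not. Windows of 250 bases before the first start that RefSeq gives (GRCh38.p14) were scanned for ACGTG and GCGTG on both strands, where CACGTG counts on both. At least 1 match was found in 9 of 10 hypoxia genes with an entry (90%), in 12 of 22 glycolysis genes (54.5%) and in 60.2% of the 7277 genes tested with an entry. The hypoxia genes were listed as known HIF targets, so their share describes the list and not the knockdown. Among the genes of both lists called lower as deposited, HK2, KDM3A and BHLHE40 held a match. SLC2A1 and MXI1 held none, and VEGFA had no entry. All 250 bases of the SLC2A1 and BHLHE40 windows lay in a GENCODE 29 exon, as did 223 in KDM3A and 146 in HK2. A match or its absence in those bases does not describe sequence outside exons. HK2 held 3 matches and MXI1 none, and these sequences are shown as a window with a match and a window without. For HK2 the bases printed are chr2:74833877-74833980 on the plus strand, which ends before the first exon of GENCODE 29 and holds 1 of the matches. For MXI1 they are chr10:110207355-110207604 on the plus strand. Capitals mark the match, which in HK2 is the reverse complement of ACGTG.
HK2: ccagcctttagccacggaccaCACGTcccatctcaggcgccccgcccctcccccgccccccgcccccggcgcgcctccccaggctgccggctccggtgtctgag
MXI1: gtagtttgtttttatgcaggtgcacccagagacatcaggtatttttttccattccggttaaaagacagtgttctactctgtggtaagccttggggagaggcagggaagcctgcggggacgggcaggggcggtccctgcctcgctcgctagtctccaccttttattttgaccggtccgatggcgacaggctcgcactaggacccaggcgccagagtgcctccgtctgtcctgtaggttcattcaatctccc
At 12 h HK2 fell by 1.52 and MXI1 fell by 1.47 on the log2 scale.

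Genes outside these lists gave several of the largest falls. HSPA1A, the stress-inducible HSP70 chaperone, had 3.64 and 4.45 in lines D and E, against 36.4 and 23.1 in shNS. Both lines were far below both shNS replicates, with a difference of -2.58 (SE 0.34, limma adjusted p = 0.0096). HSPA1A has a near-identical neighbour, HSPA1B, so the split of reads between them is uncertain. PRPS1, which makes the ribose phosphate donor for nucleotide synthesis, had 2.55 and 4.29 in lines D and E, against 15.9 and 14.8 in shNS (difference -1.92, SE 0.27, limma adjusted p = 0.011). THRA, the thyroid hormone receptor alpha, had 3.60 and 2.88 in lines D and E, against 13.4 and 12.3 in shNS (difference -1.71, SE 0.20, limma adjusted p = 0.0042). The groups were well separated in both genes. THRA overlaps NR1D1 on the other strand, and with the strand setting of the counting not stated its level is uncertain. GBE1, the glycogen branching enzyme, had 8.01 and 14.3 in lines D and E, against 38.7 and 38.9 in shNS (difference -1.76, limma adjusted p = 0.034). FCGR2B, an inhibitory Fc receptor with close paralogs that make its level uncertain, had 9.45 and 12.0 in lines D and E, against 36.7 and 36.2 in shNS (difference -1.68, limma adjusted p = 0.015). SEMA6B, a semaphorin, fell by 1.55, and SUCLG2, a subunit of succinyl-CoA ligase, fell by 1.53.

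Mitosis genes leaned to the lower side. Of 51 tested, 5 were called lower and none higher as deposited, and after centring 18 were called lower and none higher. Over all genes 0.493% were called lower as deposited and 4.43% after centring. The median difference of the list was -0.49, with 49 below 0 and 39 lower in both lines than in both shNS replicates, against 25% of all genes. BUB1B, a kinase of the spindle checkpoint, had 5.602 and 5.63 in lines D and E, against 12.5 and 12.3 in shNS (difference -1.02, SE 0.20, limma adjusted p = 0.042). CENPA, the histone variant of the centromere, had 3.38 and 4.999 in lines D and E, against 10.35 and 11.2 in shNS (difference -1.20, SE 0.25, limma adjusted p = 0.048). PTTG1, securin, had 10.6 and 16.5 in lines D and E, against 36.2 and 33.7 in shNS (difference -1.34, SE 0.28, limma adjusted p = 0.048). Both lines were below both shNS replicates in each of these genes. KIF23, a motor of cell division, fell by 1.06, and NUF2, a kinetochore protein, fell by 1.14. Before actinomycin D the same list had a median difference of 0.01 as deposited and -0.21 after centring, with 1 gene called after centring. Of the genes reported elsewhere as ALKBH5 targets, TACC3, a spindle protein, had 8.35 and 6.00 in lines D and E, against 10.2 and 9.35 in shNS (limma adjusted p = 0.35). FOXM1, a driver of mitotic genes, had 8.06 and 4.44 in lines D and E, against 10.6 and 9.84 in shNS (limma adjusted p = 0.24). MYC, the growth regulator, had 4.46 and 3.39 in lines D and E, against 1.94 and 1.99 in shNS, with a difference of 0.72 (limma adjusted p = 0.11). None of the 3 was called on either scale.

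Among small nucleolar RNA host genes, whose introns carry snoRNAs, 2 of 20 were called lower and none higher as deposited. The share of all genes called lower as deposited was 0.493%. SNHG1 had 23.4 and 22.8 in lines D and E, against 58.9 and 52.0 in shNS (difference -1.22, SE 0.23, limma adjusted p = 0.034). EPB41L4A-AS1, an antisense gene whose level is uncertain for the same reason as that of THRA, had 8.24 and 6.25 in lines D and E, against 17.0 and 14.4 in shNS (difference -1.02, limma adjusted p = 0.047). Both lines were lower than both shNS replicates in each. GAS5 had 153 and 110 in lines D and E, against 281 and 225 in shNS, and SNHG5 had 165 and 173 in lines D and E, against 377 and 323 in shNS. Both were called lower only after centring (limma adjusted p = 0.035 and 0.019). The list median was -0.23, which became 0.08 when libraries were rescaled to the ribosomal protein genes.

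Factors that build ribosomes in the nucleolus showed the opposite lean. Of 58 tested, 47 were above 0 with a median of 0.34, and 38 were higher in both lines than in both shNS replicates, against 33% of all genes. BYSL was called higher and NPM1 lower as deposited, and after centring 7 were called higher and 1 lower, where 2.85% of all genes were called higher. NPM1, nucleophosmin, had 174 and 150.5 in lines D and E, against 305 and 304 in shNS (difference -0.91, SE 0.18, limma adjusted p = 0.045). It was the only one of the list called lower on either scale, and its processed pseudogenes make its level uncertain.

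Cytoplasmic ribosomal protein genes held a smaller share of what was left in knockdown cells. They took 26.8% of the gene signal in line D and 24.6% in line E, against 31.4% and 30.5% in shNS. Of 82 genes 78 lay below 0, with a median of -0.38, which became -0.02 when libraries were rescaled to these same genes. The lean was stronger in line E, where the median was -0.59, than in line D, where it was -0.09. None was called as deposited and 6 were called lower after centring, where 4.43% of all genes were called lower. RPL7, a large-subunit protein, had 476 and 579 in lines D and E, against 1094 and 977 in shNS, and its limma adjusted p after centring was 0.027. Most ribosomal protein genes have processed pseudogenes, so single levels are uncertain.

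Mitochondrial ribosomal protein genes and proteasome genes leaned higher. Of 76 mitochondrial ribosomal protein genes 65 were above 0, with a median of 0.37, and 2 were called higher and none lower as deposited. MRPL14 had 6.72 and 6.81 in lines D and E, against 2.76 and 2.68 in shNS (difference 1.06, SE 0.19, limma adjusted p = 0.029). MRPL36 had 4.45 and 3.16 in lines D and E, against 1.26 and 1.24 in shNS (difference 1.08, limma adjusted p = 0.045). After centring 14 were called higher and 2 lower, where 2.85% of all genes were called higher. Of 45 proteasome genes 40 were above 0, with a median of 0.44, and 1 was called higher as deposited and 6 after centring. The share of all genes called higher as deposited was 0.525%. PSMG4, an assembly chaperone of the proteasome, had 2.30 and 2.09 in lines D and E, against 0.590 and 0.579 in shNS (difference 1.01, SE 0.18, limma adjusted p = 0.029). At signals near the pseudocount of 1, as for PSMG4 in shNS, the log2 difference understates the fold.

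Stress and signalling lists came next. No immediate early gene of 16 was called as deposited, with a median of -0.45, and 4 were called lower after centring, where 4.43% of all genes were. PPP1R15A, a phosphatase regulator of the stress response, had 13.8 in line D and 5.62 in line E, against 26.5 and 24.1 in shNS (centred limma adjusted p = 0.029). TRIB3, a pseudokinase induced by ATF4, was the 1 gene of 16 integrated stress response genes called as deposited, where 0.525% of all genes were called higher. It had 6.995 and 5.62 in lines D and E, against 2.48 and 2.88 in shNS (difference 0.99, limma adjusted p = 0.045). After centring, TRIB3 was still called higher and 2 other members were called lower, where 2.85% and 4.43% of all genes were. On that scale 8 members lay above 0 and 8 below. None of 14 interferon response genes was called on either scale. ISG15, a ubiquitin-like protein, had 5.97 and 3.06 in lines D and E, against 1.86 and 1.5 in shNS (limma adjusted p = 0.094). IRAK1, a kinase of Toll-like receptor signalling, had 82.7 and 130.5 in lines D and E, against 267.5 and 243 in shNS, and was called lower after centring (limma adjusted p = 0.028). None of 42 lysosome and V-ATPase genes was called on either scale. The list median against shNS had opposite signs in the lines, 0.66 for line D and -0.20 for line E. For iron handling genes the medians were 0.39 for line D and -0.23 for line E. FTL, the ferritin light chain, had 5859 in line D and 3128 in line E, against 2846 and 2743 in shNS (limma adjusted p = 0.22), and its many pseudogenes make the level uncertain.

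Translation genes split gene by gene. FARSA, the phenylalanine tRNA synthetase subunit, had 5.95 and 8.85 in lines D and E, against 2.52 and 2.44 in shNS (difference 1.25, limma adjusted p = 0.034). DARS, the aspartate tRNA synthetase, had 23.8 and 23.3 in lines D and E, against 49.6 and 48.5 in shNS (difference -1.03, limma adjusted p = 0.045). These were the only calls as deposited among 22 synthetases. SRSF9, a splicing factor, was the only call as deposited among 52 spliceosome and hnRNP genes, with 15.0 and 14.5 in lines D and E, against 6.61 and 6.40 in shNS (difference 1.07, limma adjusted p = 0.029). ZNF330 was the only one called as deposited among 171 zinc finger genes, with 3.32 and 3.07 in lines D and E, against 7.62 and 8.07 in shNS (difference -1.08, limma adjusted p = 0.035). No gene was called as deposited among 13 leukaemia self-renewal genes, 25 cholesterol synthesis genes, 54 DNA replication genes or 29 apoptosis regulators. The same held for 43 translation factors, 11 antigen presentation genes, 35 cytoskeleton genes, 81 oxidative phosphorylation genes and 11 histone genes. Over all genes 0.525% were called higher and 0.493% lower as deposited, and 2.85% and 4.43% after centring. After centring, DNA replication genes had 1 called higher and 6 lower, and translation factors 1 higher and 3 lower. Apoptosis regulators had 1 higher and 2 lower, and cytoskeleton genes 3 lower. Self-renewal and oxidative phosphorylation genes had 1 lower each, cholesterol and antigen presentation genes 1 higher each, and histone genes none.

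Most differences called at 12 h were also seen, in sign, before actinomycin D, in other libraries of the same lines. Of the 97 genes called as deposited at 12 h, 92 had the same sign at 0 h. These were 49 of the 50 called higher and 43 of the 47 called lower. With the median of all genes at 0.23 at 0 h, a positive sign there was common as deposited. After centring, 668 of the 694 calls had the same sign at 0 h, 263 of 272 higher and 405 of 422 lower. The share of all genes with the same sign at both times was not counted. At 0 h, 127 genes were called higher (1.33%) and 13 lower (0.136%) as deposited, together 1.47% of those tested. In numbers of calls the overlap was smaller, with 34 genes called at both times, which is 35.1% of the 12 h calls and 24.3% of the 140 calls at 0 h. Genes called higher had a median difference of 1.10 at 12 h and 1.02 at 0 h, whereas genes called lower had a median of -1.20 at 12 h and -0.51 at 0 h. As deposited the median of all genes was 0.06 at 12 h and 0.23 at 0 h. After centring, which removes that shift, the medians of the calls were 0.70 at 12 h and 0.46 at 0 h on the higher side, and -0.76 at 12 h and -0.38 at 0 h on the lower side. The genes were chosen by their 12 h values, so their 12 h and 0 h medians are not on an equal footing. After centring 73 genes were called higher (0.766%) and 91 lower (0.955%) at 0 h, together 1.72%, and 96 of the 12 h calls were among them, which is 13.8% of the 12 h calls and 58.5% of the 0 h calls. List medians at the 2 times were set side by side after centring, with no test of their difference. Granule genes had a median of 0.90 at 12 h and 0.97 at 0 h, hypoxia genes -1.40 at 12 h and -1.06 at 0 h, glycolysis genes -0.84 at 12 h and -0.28 at 0 h, and nucleolar factors 0.28 at 12 h and 0.25 at 0 h. Across all genes the differences at 12 h and 0 h had a Pearson correlation of 0.719 and a Spearman correlation of 0.694, a description over genes that are not independent replicates.

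DEFB1 is an example of a gene at a similar distance at both times, with a difference of 3.19 at 12 h and 3.66 at 0 h, and so is CD68, with 1.18 at 12 h and 1.14 at 0 h. In other genes the distances at the 2 times were further apart, as centred values show. SNHG1 was at -1.28 at 12 h and -0.29 at 0 h, BUB1B at -1.08 at 12 h and -0.32 at 0 h, and PRPS1 at -1.98 at 12 h and -0.68 at 0 h. NPM1 was at -0.97 at 12 h and -0.31 at 0 h, and RN7SK had opposite signs, with 1.63 at 12 h and -0.66 at 0 h. Whether such genes differ between the times was tested directly. The 12 h minus 0 h difference of the knockdown effect was called for 0 genes on both scales with limma, while 337 genes as deposited (3.54%) and 503 after centring (5.28%) had an unadjusted p under 0.05. With a shared correlation within each line fitted as a replicate block, 7 genes as deposited and 17 after centring were called. RN7SK at 2.13, PRPS1 at -1.46 and RRM2, a ribonucleotide reductase subunit, at -1.28 were among the 7, and after centring SNHG1, BUB1B, KIF23 and THRA were among the 17.

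**Figure D3:**
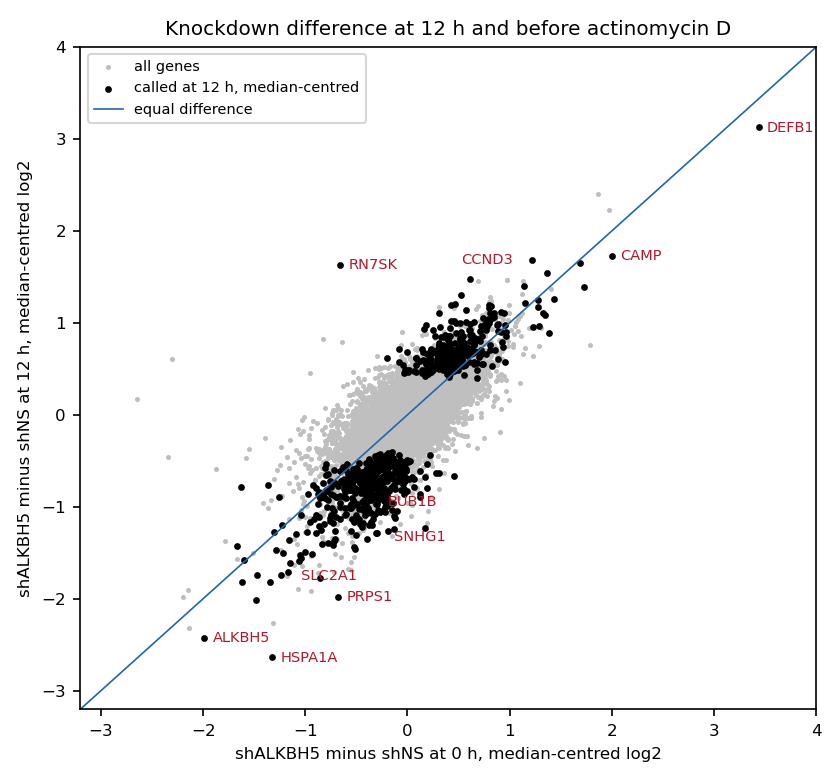
Median-centred difference between shALKBH5 and shNS in log2 at 12 h, on the y axis, against the same at 0 h, on the x axis. Grey points are all genes, black points are the 694 genes called at 12 h after centring, and the blue line marks equal differences. Most called genes lie in the same quadrant at both times, while RN7SK lies high at 12 h and below 0 at 0 h, and BUB1B and SNHG1 lie at -0.32 and -0.29 at 0 h.

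Lines D and E moved in the same direction for the called genes but not by the same amount. Of the 97 genes called as deposited, line D lay further from shNS in 53 and line E in the rest. With line D left out at 12 h, 20 of the 97 remained called in the same direction, and with line E left out 75 did. The fit with a single knockdown library assumes that it varies like the other groups. List medians against shNS differed between the lines as well. Granule genes stood at 0.61 for line D and 1.20 for line E, hypoxia genes at -1.38 for line D and -1.07 for line E, and mitosis genes at -0.33 for line D and -0.65 for line E.

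Transcripts that shNS cells lose quickly were relatively higher in knockdown cells at 12 h, and long-lived ones relatively lower. Genes were put in 5 bins of equal size by the percent of signal left from 0 h to 8 h in shNS, a measure that holds no 12 h library. The median 12 h difference was 0.19 in the bin with least left and -0.07 in the bin with most left. In line D these medians were 0.29 and 0.04, and in line E 0.09 and -0.19. The difference between the shNS replicates themselves, replicate 1 minus 2, was 0.02 in the bin with least left and 0.12 in the bin with most left. Genes called higher after centring had a median of 31.6% left, genes called lower had 51.3%, and all genes had 41.8%. The signal of shNS cells at 0 h went with the difference as well, with a median of 0.14 in the lowest of 5 bins and -0.15 in the highest. Its part in the pattern by percent left was not tested.

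Base composition went with the 12 h difference too. GC content was taken from a coding transcript of GENCODE 29 for 8752 genes, 91.9% of those tested. The median difference was -0.03 in the bin of genes lowest in GC and 0.20 in the bin highest, and both lines had that order. The same order stood before actinomycin D, with 0.17 in the lowest bin and 0.32 in the highest, and between the shNS replicates at 12 h the medians were 0.0087 and 0.084. Genes called higher after centring had a median GC of 56.1%, genes called lower had 45.4% and all genes 49.1%. GGACT, a common form of the m6A consensus, occurred at a median of 1.17 per kb of mRNA in genes called higher, 0.838 in genes called lower and 0.935 in all genes. ATTTA, the core of AU-rich elements that mark many short-lived mRNAs, had a median of 0.863 per kb of 3′ untranslated region in genes called higher, 2.01 in genes called lower and 1.64 in all genes. In the lowest and highest bins the median 12 h difference was 0.0040 and 0.12 for GGACT, and 0.11 and -0.0072 for ATTTA. Before actinomycin D these bins had the same order, with 0.22 and 0.31 for GGACT, and 0.29 and 0.18 for ATTTA. GC content and these motifs are linked by composition, and their separate parts were not tested.

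**Figure D4:**
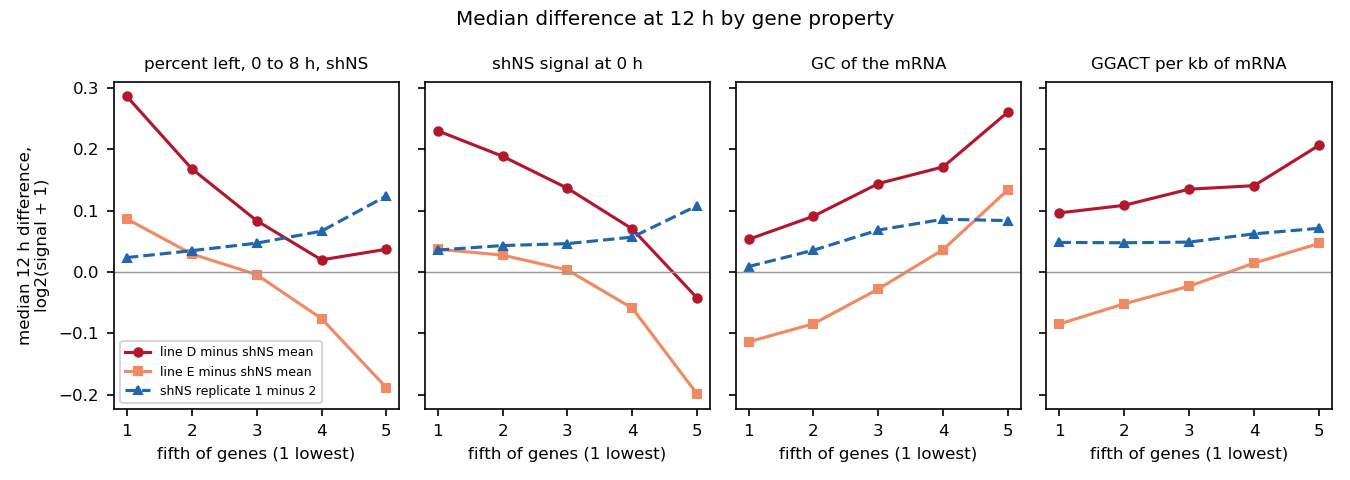
Median difference at 12 h in log2(signal + 1), on the y axis, over 5 bins of the genes for each property, on the x axis from lowest to highest. Red circles are line D and orange squares line E, each minus the shNS mean, and blue triangles are shNS replicate 1 minus replicate 2 as the spread between controls. From the lowest to the highest GC bin the medians go up in both lines, and from the lowest to the highest bin of percent left they are 0.29 and 0.04 for line D and 0.09 and -0.19 for line E.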

How the data were processed

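Signal per gene symbol was measured by RNA-seq of poly(A) RNA in 12 NOMO-1 libraries, prepared with a stranded kit per the labels' protocols. The deposited values are an expression signal made by the authors. STAR, RSEM and the build GRCh38 are listed in the submitters' processing notes, while versions, the unit before scaling and the strand setting are not stated there. No value is 0 and depth is unknown. One protocol text in the labels speaks of FTO and of drugs other than actinomycin D; grouping rests on the sample titles, which give ALKBH5 hairpins.

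Signals were analysed as log2(signal + 1) in limma 3.58.1 (R 4.3.3) with 6 group means over 12 libraries, a mean-variance trend and Benjamini-Hochberg adjustment, called under 0.05. Genes needed a mean of at least 1, which all 9529 met (lowest 1.30). Median centring subtracted each library's median log2(signal + 1). The fit was also run on simulated libraries that were independent and had the same spread in both arms. Those runs therefore could not show how correlation within lines or unequal spread between the arms affects the calls.

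GENCODE 29 matched 9144 symbols and missed 385, and promoters are from RefSeq (GRCh38.p14). Named genes were 8 preset ones, the 12 largest rises and 12 largest falls called on both scales with a mean 12 h signal of at least 5 and no overlap, and up to 4 called members of each list, or 2 with the smallest adjusted p. Other list members were named after their values were seen. The members and lists were chosen with earlier results of these data known. A marker gene is not reported here.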

Additional observations from a re-analysis of the deposited data

Results flagged for a closer look

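In 7 of the named genes the knockdown libraries lay on one side of both shNS libraries at 12 h and on the other side at 0 h. Over all genes this held for 366, or 3.84%, of which 350 were lower at 12 h and higher at 0 h, and the median of all genes as deposited was itself 0.06 at 12 h and 0.23 at 0 h. None of the 7 passed the limma test of the 12 h minus 0 h difference without a replicate block. With the block RN7SK passed it on both scales (limma adjusted p = 0.002 as deposited and 0.0246 after centring). RN7SK was higher in knockdown cells at 12 h and lower at 0 h, with a difference of the effects of 2.13 on the log2 scale. TACC3 went the other way, with -0.75. The remaining genes were also lower at 12 h and higher at 0 h, with -0.70 for HNRNPC, an RNA-binding protein, -0.79 for RRM1, a ribonucleotide reductase subunit, -0.93 for EIF4EBP1, an inhibitor of cap-dependent translation, -0.99 for TUBA1B, a tubulin with close paralogs, and -0.89 for H3F3B, a replacement histone.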

How the results depend on the processing

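Counts of calls at 12 h moved with most settings. Of 188 single-gene differences recomputed under the alternatives, 1 changed sign, that of H3F3B, which was not called and turned to 0.053 when libraries were rescaled to the ribosomal protein genes. That rescaling also moved the median of all genes to 0.36. Of 38 list medians 20 changed sign under at least 1 setting, but not those of the granule, myeloid, hypoxia, glycolysis, mitosis, nucleolar, proteasome, immediate early and both ribosomal protein lists. In order of higher and lower calls as deposited (50 and 47 as reported), median-of-ratios scaling gave 808 and 776, ribosomal protein rescaling 2377 and 102, a pseudocount of 0.1 338 and 193, a pseudocount of 5 2 and 6, and a mean 12 h signal of at least 5 28 and 69. The fit to the 4 libraries at 12 h alone gave 0 and 0, and weights by arm, added after seeing the data, gave 137 and 140. Leaving out 1 library at a time gave 1 to 229 higher and 0 to 205 lower. Without line D at 12 h there were 8 and 19, without line E 229 and 79, without either shNS library at 0 h 4 and 8, at 8 h 4 and 7 and at 12 h 1 and 0, and without either line at 8 h 196 or 197 and 204 or 205. After centring (272 and 422), a pseudocount of 0.1 gave 686 and 750, a pseudocount of 5 gave 21 and 79, the 12 h minimum of 5 gave 233 and 228, the 4 libraries alone 0 and 0, and weights by arm 138 and 324. Leaving out 1 library at a time gave 1 to 418 higher and 6 to 637 lower, with 105 and 175 without line D at 12 h, 98 and 191 without either shNS library at 0 h, 91 and 178 without either at 8 h, 1 and 6 or 7 without either at 12 h, and 418 or 411 and 637 without line D or E at 0 h. The 12 h minus 0 h difference was called for 0 to 4 genes as deposited and 0 to 1 after centring when 1 library was left out, the highest counts both without line E at 0 h. The cause of these shifts was not tested.

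A shared correlation within lines and within shNS replicates over time was fitted as a replicate block. It was estimated at 0.446 as deposited and 0.604 after centring. With the block, 147 genes were called higher and 160 lower as deposited, and 254 higher and 427 lower after centring, while the 12 h minus 0 h difference was called for 7 genes as deposited and 17 after centring. All 97 calls as deposited kept their call and direction with the block, with median-of-ratios scaling and with a pseudocount of 0.1, but 8 kept it with a pseudocount of 5. Of the 694 calls after centring 535 kept theirs with the block. The minimum of 1 removed no gene, so leaving it out changed nothing. Unknown depth limits low genes.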
